A study of Rattus norvegicus with 4 samples.

Results

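The genes described here copy DNA and supply its building blocks. They were taken from a list of 43 genes of DNA replication and nucleotide supply, each represented by every probe set whose only annotated gene symbol is that gene. This list, its roles and the lists set beside it were chosen with earlier results of these data known. Contrasts with all genes and between lists are therefore descriptions only. The array carried 52 such probe sets for 40 of the 43 genes, out of 14217 genes with a symbol. Of the 40 genes, 33 had 1 probe set and 7 had several, up to 4. Gins2 and Cdc6 have no probe set in the annotation used, and Rrm2 shares both of its probe sets with Rrm2l1, so these 3 genes were not analysed here.

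Gene expression was measured in RNA from rat mammary gland on 4 arrays, with 1 array per group. The control strain, Sprague-Dawley (SDR), contributed a lactation array and an involution array, involution being the regression of the gland once suckling ends. The mutant strain, Hirosaki hairless (HHR), contributed a heterozygous and a homozygous array, both from lactation. All samples are labelled day 1 of their stage. The labels name no treatment, age, or number of animals per array. With no replicates, no value below has a replicate error and no difference was tested. Differences are described by size, and the number of arrays limits their precision.

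DNA replication begins when the origin recognition complex, with Cdc6 and Cdt1, loads the Mcm2 to Mcm7 helicase onto origins. Mcm10, Cdc45 and the GINS complex then activate the helicase, primase starts each new strand, and polymerases delta and epsilon extend it on the sliding clamp Pcna. Genes of this machinery are switched on before and during S phase, largely by E2F transcription factors, whereas mitosis genes peak later in the cycle. In the mammary gland most epithelial division takes place in pregnancy and falls away as milk secretion is established.

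Promoters were examined first, because E2F factors are known to bind in the promoters of replication genes. The windows came from RefSeq (assembly GRCr8) and ran from 250 bases before to 50 bases after each gene start. They covered 35 of the 40 genes through 37 promoters, since Uhrf1 has several starts. Mcm4, Orc1, E2f1, E2f8 and Mdc1 had no window and were not searched. The words searched for E2F were TTTGGCGC, TTTCCCGC, TTTGCCGC and TTTCGCGC, on both strands, and overlapping matches were each counted. At least 1 word was found in 17 of 37 promoters (45.9%), against 716 of 33469 promoters in the whole table (2.14%). The word of the cell cycle genes homology region (CHR), which is known from mitosis genes, was searched as TTTGAA or TTCGAA. It was found in 5 of the 37 promoters (13.5%), against 19.7% of all promoters. For a list of mitosis genes the picture was the opposite, with an E2F word in 1 of 21 promoters (4.76%) and a CHR word in 15 (71.4%). Other genes of replication and nucleotide metabolism had an E2F word in 22 of 59 promoters (37.3%). The median GC content was 59.7% in promoters of the 35 genes and of the mitosis list, and 51.7% over all promoters, so base composition differed from that of all promoters and its part in the shares was not tested. A match describes letters in a window and is not evidence that a factor binds there.

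**Figure D1:**
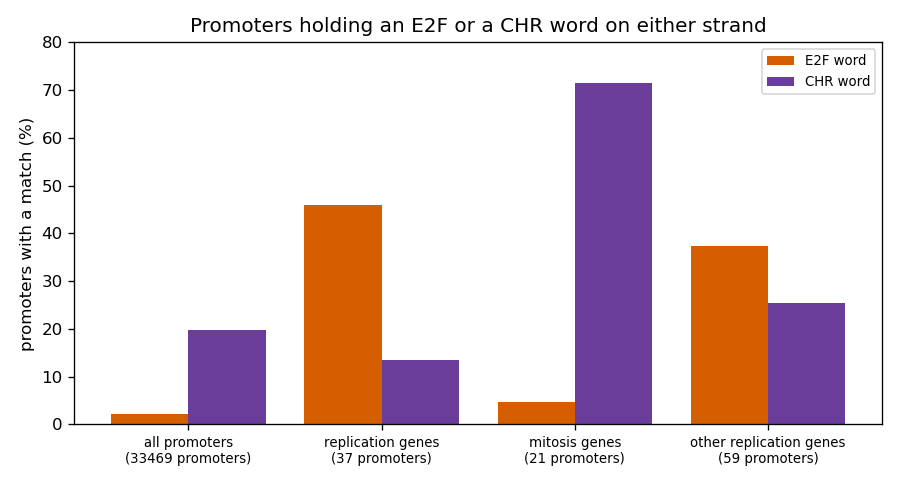
Share of promoters (y axis, %) that hold an E2F word or a CHR word on either strand, for all promoters and 3 gene lists (x axis, with the number of promoters). The replication genes stand at 45.9% for E2F words and 13.5% for CHR words, and the mitosis genes at 4.76% and 71.4%.

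The stretches below are shown because they belong to the 8 genes with an E2F word whose signals differed most between heterozygous HHR and SDR lactation. Each reads 5′ to 3′ along the gene and ends at most 30 bases past the gene start, and capitals mark E2F words or, where they overlap, their union. They lie at chr12:52053633-52053689 (minus strand) for Pole, chr9:1222968-1223119 (plus strand) for Uhrf1, chr12:5836540-5836597 (plus strand) for Rfc3 and chr6:93435332-93435377 (minus strand) for Pole2. The others lie at chr19:13488583-13488837 (plus strand) for Mcm5, chr9:30733717-30733777 (minus strand) for Mcm3, chr13:42404455-42404516 (minus strand) for Mcm6 and chr8:44629839-44629896 (minus strand) for Chek1.
Pole: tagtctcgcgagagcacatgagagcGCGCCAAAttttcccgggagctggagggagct
Uhrf1: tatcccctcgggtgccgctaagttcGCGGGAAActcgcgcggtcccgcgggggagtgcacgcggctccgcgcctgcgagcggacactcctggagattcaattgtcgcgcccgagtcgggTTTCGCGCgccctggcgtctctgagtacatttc
Rfc3: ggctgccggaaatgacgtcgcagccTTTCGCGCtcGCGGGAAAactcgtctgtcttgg
Pole2: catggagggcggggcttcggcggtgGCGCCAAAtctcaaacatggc
Mcm5: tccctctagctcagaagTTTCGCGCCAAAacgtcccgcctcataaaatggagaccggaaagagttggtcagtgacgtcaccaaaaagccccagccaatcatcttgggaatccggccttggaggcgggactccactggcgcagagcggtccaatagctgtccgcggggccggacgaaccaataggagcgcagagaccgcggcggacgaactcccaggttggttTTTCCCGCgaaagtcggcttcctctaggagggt
Mcm3: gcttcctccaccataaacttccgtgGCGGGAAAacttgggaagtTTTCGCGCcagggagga
Mcm6: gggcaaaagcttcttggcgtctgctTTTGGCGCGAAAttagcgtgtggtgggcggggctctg
Chek1: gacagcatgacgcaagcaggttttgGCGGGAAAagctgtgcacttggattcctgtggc
In Mcm5 and Mcm6 a pair of words on opposite strands overlap in the run of 12 capitals, and Mcm5 carries a further word that ends at the base before the start. Rfc3 and Mcm3 each hold 2 separate words close to the start. Of the 27 matches in all 37 promoters, 12 began within 100 bases before the start. Counted by promoter, so that Uhrf1 enters once per start, the genes of the 17 promoters with a word had a median log2 difference of 1.25 between heterozygous HHR and SDR lactation, and those of the 20 without a word 1.12. At least 2-fold higher were 10 of the 17 and 15 of the 20, and the difference between these sets was not tested.

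The deposited signals had the same trimmed mean in every array, 500.2 once 2% of probe sets were trimmed from each end. Signals under 91.5, the pooled 40th percentile, were raised to this floor before any fold was taken, so that where 1 side lies at the floor the fold is given as "at least". Of the 40 genes, 34 lay above the floor in all 4 arrays, 39 in heterozygous HHR, 38 in each of the other lactation arrays and 35 in involution. For Gapdh, the 3′ over 5′ control ratio, a sign of RNA quality, was 1.17 and 1.60 for SDR (lactation, involution) and 1.93 and 2.30 for HHR (heterozygous, homozygous). For actin it was 4.60 and 4.80 for SDR and 7.86 and 5.91 for HHR, and thus highest in the heterozygous array. Relative to SDR lactation, the spiked-in controls differed by -0.50 on the log2 scale in SDR involution, -0.02 in heterozygous HHR and -0.19 in homozygous HHR. The part of these in the results was not tested. Levels are compared within a probe set, never between genes, except that signals of cell type markers are also summed within an array. In these sums bright probe sets weigh most.

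The listed replication genes were higher in heterozygous HHR than in SDR at lactation across every role of the list. Of 39 genes above the floor in at least 1 of these arrays, 25 were at least 2-fold higher and 0 lower, where 4.58% of 10876 measured genes were at least 2-fold higher and 4.15% lower. All 39 were higher in heterozygous HHR, against 51.0% of all measured genes. The median log2 difference was 1.12 (2.18-fold), against 0.01 over all measured genes. Brca1 was at or below the floor in all 3 lactation arrays. The differences ran from 0.04 for Rpa2 to 2.54 for E2f8. Near the threshold, 10 genes lay within 0.1 of a 2-fold difference, 4 of them just above it and 6 just below. With a pseudocount in place of the floor the 25 genes became 17.

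**Figure D2:**
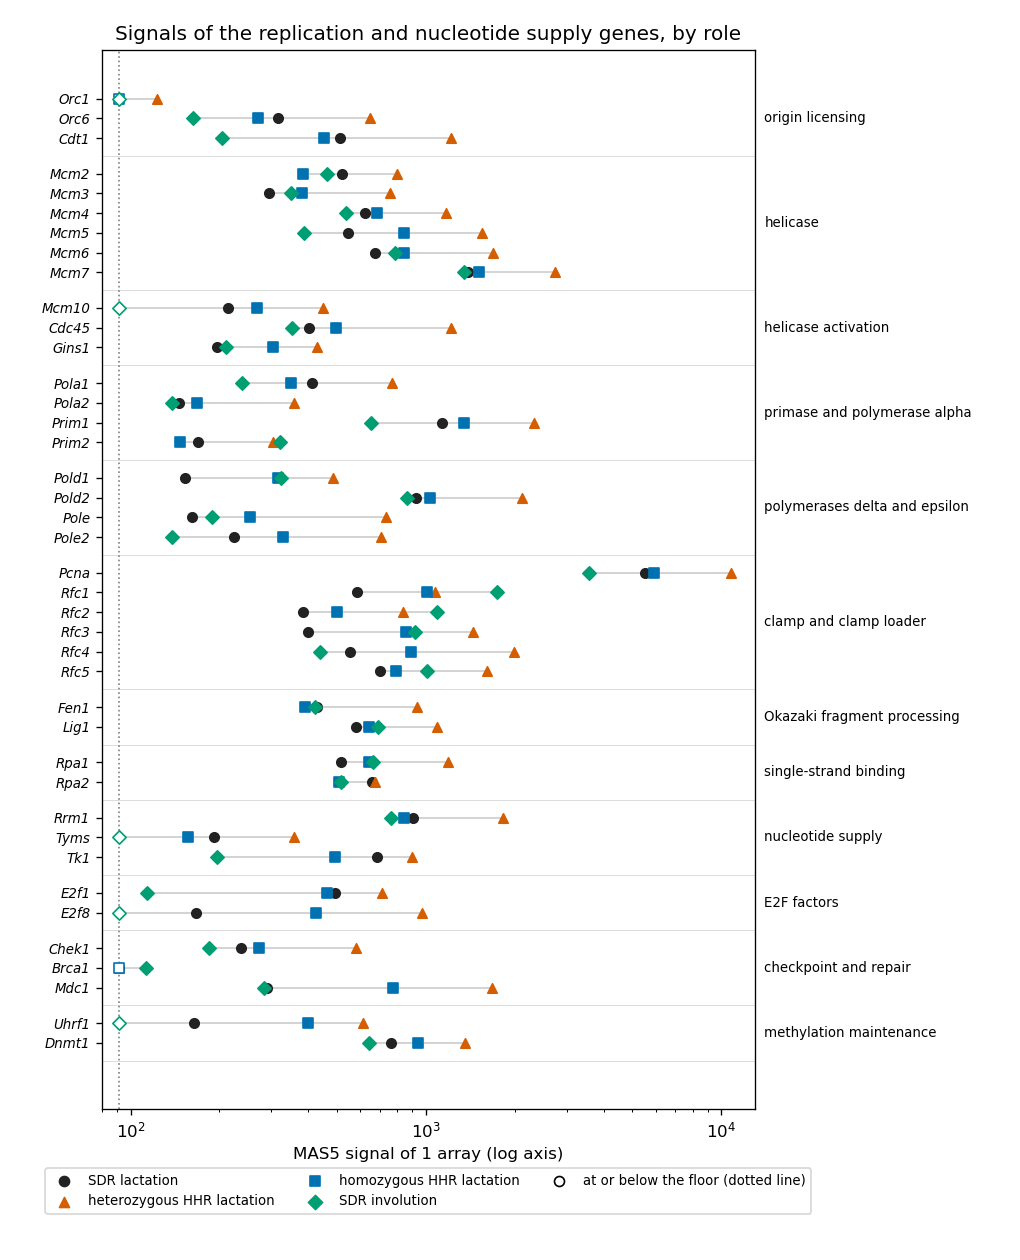
Signal of each gene (x axis, log scale) in the 4 arrays, 1 point per array, with genes grouped by role (y axis) and open symbols for signals at or below the floor of 91.5. Heterozygous HHR (triangles) is the rightmost point for 31 of the 34 genes above the floor in all arrays.

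Among genes that license origins, Cdt1, which loads the helicase, had signals of 514 (SDR lactation), 1218 (heterozygous HHR), 453 (homozygous HHR) and 205 (involution), the order kept for all genes that follow. Only heterozygous HHR stood above SDR lactation, at 2.37-fold, and involution was the lowest array. Orc6, a subunit of the origin recognition complex, read 316, 645, 269 and 162.5 in the same order, 2.04-fold higher in heterozygous HHR. Orc1, the largest subunit, reached 123 in heterozygous HHR and was below the floor in the other arrays. The subunits Orc2 to Orc5 lie outside the list and were named after their values were seen. Heterozygous HHR was 1.27-fold above SDR lactation for Orc2, 1.29-fold for Orc3 and 1.19-fold for Orc5. For Orc4 it was 1.19-fold below.

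All 6 helicase subunits were higher in heterozygous HHR, 3 of them by at least 2-fold. Mcm5 had signals of 545, 1544.5, 840.5 and 386, so heterozygous HHR was 2.83-fold above SDR. Mcm3, with 294, 756, 380.5 and 350.5, was 2.57-fold higher in heterozygous HHR. Mcm6, with 672, 1687, 845 and 784, was 2.51-fold higher. The other subunits stayed under 2-fold. Mcm7 had 1385, 2733, 1508 and 1347 (1.97-fold). Mcm4 had 624, 1173, 685 and 535 (1.88-fold), and Mcm2 had 518, 801, 383 and 461 (1.55-fold). Heterozygous HHR held the highest signal for each subunit, while the lowest array varied between them.

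All 3 listed and measured genes of helicase activation were at least 2-fold higher in heterozygous HHR. Cdc45, which travels with the helicase, had signals of 403, 1214, 497.5 and 351, with heterozygous HHR 3.01-fold above SDR lactation. Gins1, a GINS subunit, had 196, 427, 303 and 209.7, a 2.18-fold difference. The GINS subunits Gins3 and Gins4, outside the list and named after their values were seen, were 1.04-fold and 1.05-fold higher. Mcm10 had 214 in SDR lactation, 448 in heterozygous HHR and 268.5 in homozygous HHR, a 2.09-fold difference for the first pair, and a signal below the floor (79.6) in involution.

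The listed subunits of polymerases delta and epsilon showed some of the widest gaps. Pole, the catalytic subunit of polymerase epsilon, had signals of 162, 732, 253 and 188, and heterozygous HHR was 4.52-fold above SDR lactation. Its partner Pole2 had 224, 704, 329 and 138, a 3.14-fold difference. Pold1, the catalytic subunit of polymerase delta, had 153, 484, 316 and 322, a 3.16-fold difference, and Pold2 had 923, 2122, 1037 and 865, a 2.30-fold difference. For all 4 genes heterozygous HHR was the highest array, while the lowest was SDR lactation for Pole and Pold1 and involution for Pole2 and Pold2. Outside the list, and named after their values were seen, Pold3 was 1.24-fold higher in heterozygous HHR than in SDR lactation. Pold4 was 1.69-fold lower and Pole4 1.12-fold lower.

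Primase and polymerase alpha, which lay down the starting stretch of each strand, differed less. Pola2 had signals of 145, 358.5, 167 and 138 and was 2.47-fold higher in heterozygous HHR than in SDR lactation. Prim1, the catalytic subunit of primase, had 1135.5, 2317, 1348 and 651, a 2.04-fold difference. Pola1 read 412, 769, 350.3 and 239 (1.87-fold), and Prim2 read 169, 304, 147.5 and 322 (1.80-fold). Prim2 differs from the other 3 genes in that involution was its highest array.

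Clamp and clamp loader genes were higher in heterozygous HHR as well, 4 of 6 by at least 2-fold. Pcna, the sliding clamp, had signals of 5515, 10836, 5908 and 3573, 1.96-fold higher in heterozygous HHR. Of the loader subunits, Rfc3 had 398, 1446.5, 859 and 921 (3.63-fold) and Rfc4 had 553, 1987, 889 and 437.5 (3.59-fold). Rfc5 had 698, 1606, 795 and 1008 (2.30-fold), and Rfc2 had 384, 835, 499.7 and 1091 (2.17-fold). Rfc1, at 1.84-fold, is taken up with its further probe sets. In involution the loader genes split, with Rfc2 at its highest and Rfc4 at its lowest.

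Fen1, the nuclease that trims Okazaki fragments, had 427.5, 931, 388.5 and 423 and was 2.18-fold higher in heterozygous HHR than in SDR lactation. Lig1, the ligase that joins them, had 578.5, 1095, 639.7 and 688 on the probe set that stands for it (1.89-fold). A further Lig1 probe set read 399, 1390.0, 745 and 629.7, a 3.49-fold difference. The single-strand binding subunits parted: Rpa1 had 514, 1188.5, 639.5 and 659.7 (2.31-fold), whereas Rpa2 had 657, 674, 508.5 and 515 (1.03-fold). Rpa2 was the gene with the smallest difference among those measured.

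Nucleotide supply genes lay near or below the 2-fold line on the probe sets that stand for them. Rrm1, the large subunit of ribonucleotide reductase, had signals of 903, 1822, 842 and 759, 2.02-fold higher in heterozygous HHR. Tyms, which makes thymidylate, had 191, 359 and 157 in the lactation arrays (1.88-fold for heterozygous HHR over SDR) and a signal below the floor (79.3) in involution. Tk1, thymidine kinase, had 681, 899, 492 and 197 on its brightest probe set, a 1.32-fold difference. Another Tk1 probe set read 360.1, 815, 374 and 42.9 and gave 2.26-fold, and the dimmest read 80.4, 247, 146.5 and 30.1 and gave at least 2.70-fold. The size of the Tk1 difference thus depends on the probe set, with 2 of its 3 probe sets past 2-fold.

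Regulators of the programme included the largest differences. E2f8, a repressor of the E2F family that is itself an E2F target, had signals of 166, 967, 426 and 49.4, and was 5.83-fold higher in heterozygous HHR than in SDR lactation. E2f1, an activator of the family, had 490.4, 711, 464 and 114, a 1.45-fold difference. Mdc1, a mediator of the DNA damage response, read 290.3, 1678, 774 and 284 (5.78-fold), and the checkpoint kinase Chek1 read 236, 581, 272 and 184 (2.46-fold). Uhrf1, which recruits Dnmt1 to newly copied DNA, had 164, 612, 399.7 and 17.3 (3.72-fold), and the maintenance methyltransferase Dnmt1 had 760.5, 1361.5, 940.2 and 643 (1.79-fold). In these 6 genes heterozygous HHR was again the highest array.

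The homozygous gland was set against SDR lactation next. Of 38 measured genes 5 were at least 2-fold higher and 0 lower, where 3.77% of 10866 genes were higher and 2.72% lower. The median log2 difference was 0.23, against 0.02 over all measured genes. Above 0 were 27 of the 38 (71.1%), against 51.4% of all measured genes. The 5 genes were Mdc1 at 2.66-fold, E2f8 at 2.57-fold, Uhrf1 at 2.43-fold, Rfc3 at 2.16-fold and Pold1 at 2.06-fold. Below SDR lactation were Cdt1 (-0.18 on the log2 scale), Orc6 (-0.23), Rrm1 (-0.10), Tyms (-0.29), Mcm2 (-0.43) and Rpa2 (-0.37). Pola1 (-0.23), Prim2 (-0.19), Fen1 (-0.14) and E2f1 (-0.08) were also below it, so the lower genes came from several roles. For Tk1 the direction depends on the probe set. Its brightest probe set was lower in homozygous HHR (492 against 681, -0.47 on the log2 scale), another was nearly level (374 against 360.1, 0.05) and the dimmest was higher (146.5 against a signal below the floor, at least 1.60-fold). With a pseudocount in place of the floor 2 genes passed 2-fold, and among genes above the floor in all 4 arrays 3 did.

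Between the HHR arrays, every one of 39 measured genes was lower in homozygous than in heterozygous HHR, while 50.2% of all measured genes were higher. At least 2-fold lower were 18 and higher 0, where 3.14% of 10877 genes were lower and 3.76% higher. The median log2 difference was -0.99, against 0.00 over all measured genes. Pole was 2.89-fold, Cdt1 2.69-fold, Cdc45 2.44-fold, Orc6 2.40-fold and Fen1 2.40-fold higher in heterozygous HHR, and the smallest difference was that of Rfc1, at 1007 against 1074.5 (-0.09 on the log2 scale). Of the genes close to the threshold 7 lay within 0.1 past it and 2 within 0.1 short of it. The 18 genes became 9 with a pseudocount and 7 with arrays scaled to the spiked-in controls.

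For the 25 genes at least 2-fold higher in heterozygous HHR, the homozygous signal lay at a median of 27.2% of the log2 distance from SDR to heterozygous HHR. Uhrf1 (67.6%), Pold1 (63.0%), Rfc3 (59.6%), Mdc1 (55.9%), Gins1 (55.8%) and E2f8 (53.5%) lay more than midway. Orc6 (-22.4%), Cdt1 (-14.5%), Fen1 (-12.3%) and Rrm1 (-9.84%) lay below SDR lactation. These positions use the same SDR and heterozygous arrays that chose the 25 genes and are a description only.

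Between involution and lactation in SDR, replication genes differed in both directions. Of 39 measured genes 5 were at least 2-fold lower (12.8%) and 4 higher (10.3%), where 8.94% of 11014 genes were lower and 10.3% higher. Both shares were thus close to the background, and the genes at each end are given as values only. Above 0 were 13 of the 39 (33.3%), against 54.3% of all measured genes. The median log2 difference was -0.20, against 0.08 over all measured genes. With arrays scaled to the spiked-in controls this median was 0.30 and 2 genes were at least 2-fold lower. That scaling raises every involution signal by 0.50 against SDR lactation, so the direction of the list as a whole is not settled, while it leaves the order of genes above the floor as it was.

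**Figure D3:**
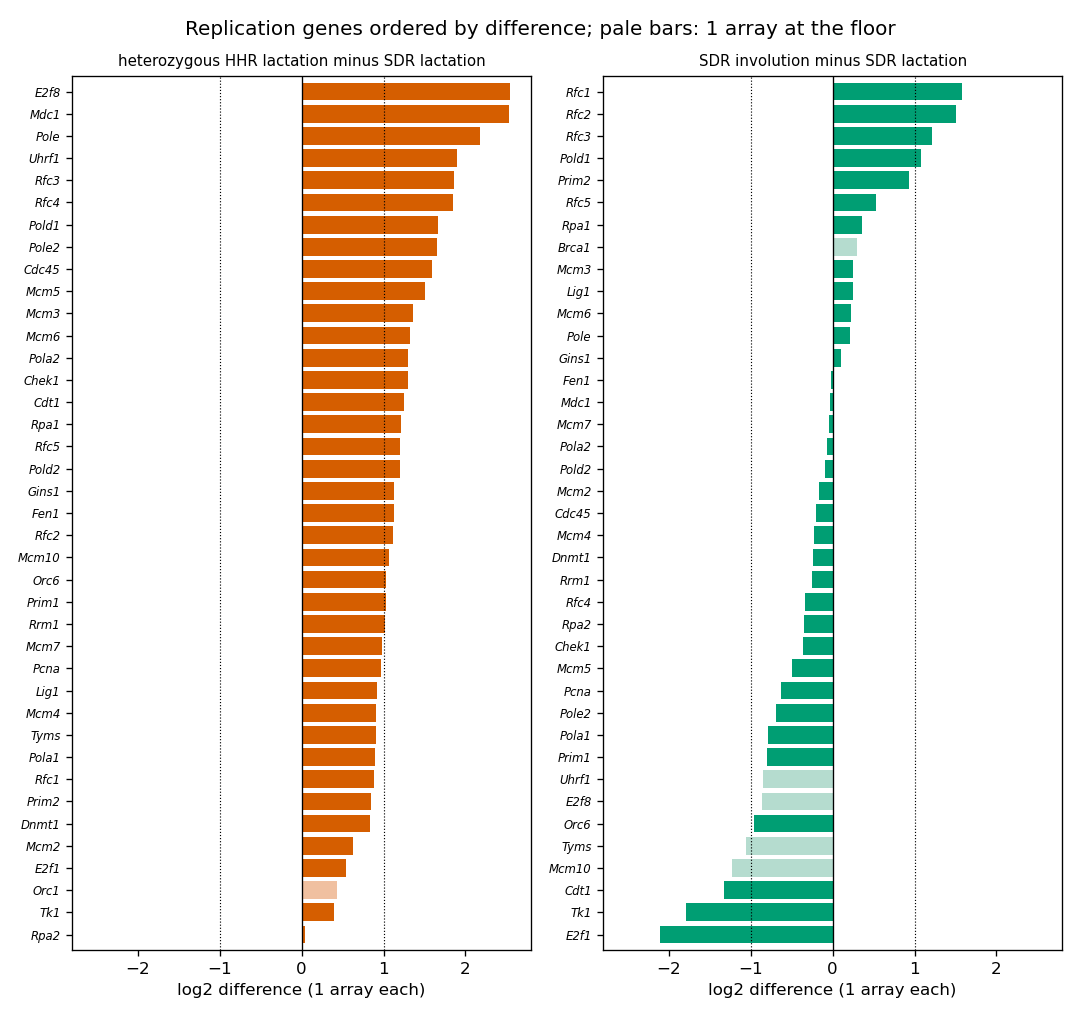
Log2 difference of each gene (x axis, 1 array on each side) from SDR lactation in heterozygous HHR (left) and SDR involution (right), in order of size, with dotted lines at 2-fold and pale bars where 1 array is at the floor. On the left all 39 bars point right, and on the right they run from -2.11 for E2f1 to 1.57 for Rfc1, with pale bars showing bounds that have no rank.

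The 5 genes at least 2-fold lower in involution were the E2F activator E2f1, the thymidine nucleotide enzymes Tk1 and Tyms, the licensing factor Cdt1 and the helicase activation factor Mcm10. E2f1, with 114 in involution against 490.4 in SDR lactation, was 4.32-fold lower. Tk1 was 3.46-fold lower (197 against 681) and Cdt1 2.51-fold lower (205 against 514). Mcm10 and Tyms were below the floor in involution, at least 2.34-fold and at least 2.09-fold lower. E2f8 and Uhrf1 were also below the floor, which bounds their differences at 1.81-fold and 1.80-fold or more, so genes at the floor cannot be ranked against the others. Orc6 was 1.94-fold lower and Prim1 1.74-fold lower.

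At the upper end stood some clamp loader subunits and a polymerase subunit, while the loader subunit Rfc4 was 1.26-fold lower in involution. Rfc1, the large subunit of the clamp loader, had signals of 583, 1074.5, 1007 and 1737, so that involution was 2.98-fold above SDR lactation. Rfc2 was 2.84-fold higher (1091 against 384), Rfc3 2.31-fold higher (921 against 398) and Pold1 2.10-fold higher (322 against 153). Prim2 followed at 1.91-fold (322 against 169). For Rfc1, Rfc2 and Prim2, alone among the 34 genes above the floor in all arrays, involution was the highest array.

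Helicase subunits differed little between involution and SDR lactation, from 1.41-fold lower for Mcm5 to 1.19-fold higher for Mcm3, with Mcm7 at 1347 against 1385. Pcna was 1.54-fold lower, Pola1 1.72-fold lower and Pole2 1.62-fold lower. Mdc1 (284 against 290.3) and Fen1 (423 against 427.5) had nearly the same signal in both arrays. Brca1, a repair factor, read 113 in involution and 73.1, 75.2 and 83.3 in the lactation arrays, and only the involution signal exceeded the floor.

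A list of 25 mitosis genes, 23 of them measured, was set beside the replication genes. In heterozygous HHR 23 of 23 mitosis genes were at least 2-fold above SDR lactation, with a median log2 difference of 1.73 against 1.12 for the replication genes. In involution 22 of 23 were at least 2-fold lower, with a median of -2.51 against -0.20. Only 13 of the 23 lay above the floor in all 4 arrays, so some of these differences are bounds and the median depends on the floor. Mki67, a marker of dividing cells, had signals of 2496, 10701, 4059 and 224. Top2a, the topoisomerase that untangles copied chromosomes, had 1322, 6117, 2412 and 75.0 in that order, the last below the floor. Over the deposited scale and the 8 alternatives in scaling, floor and choice of probe set, the involution median ranged from -2.78 to -1.62 for the mitosis list and from -0.29 to 0.30 for the replication genes. The difference between the lists was not tested.

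**Figure D4:**
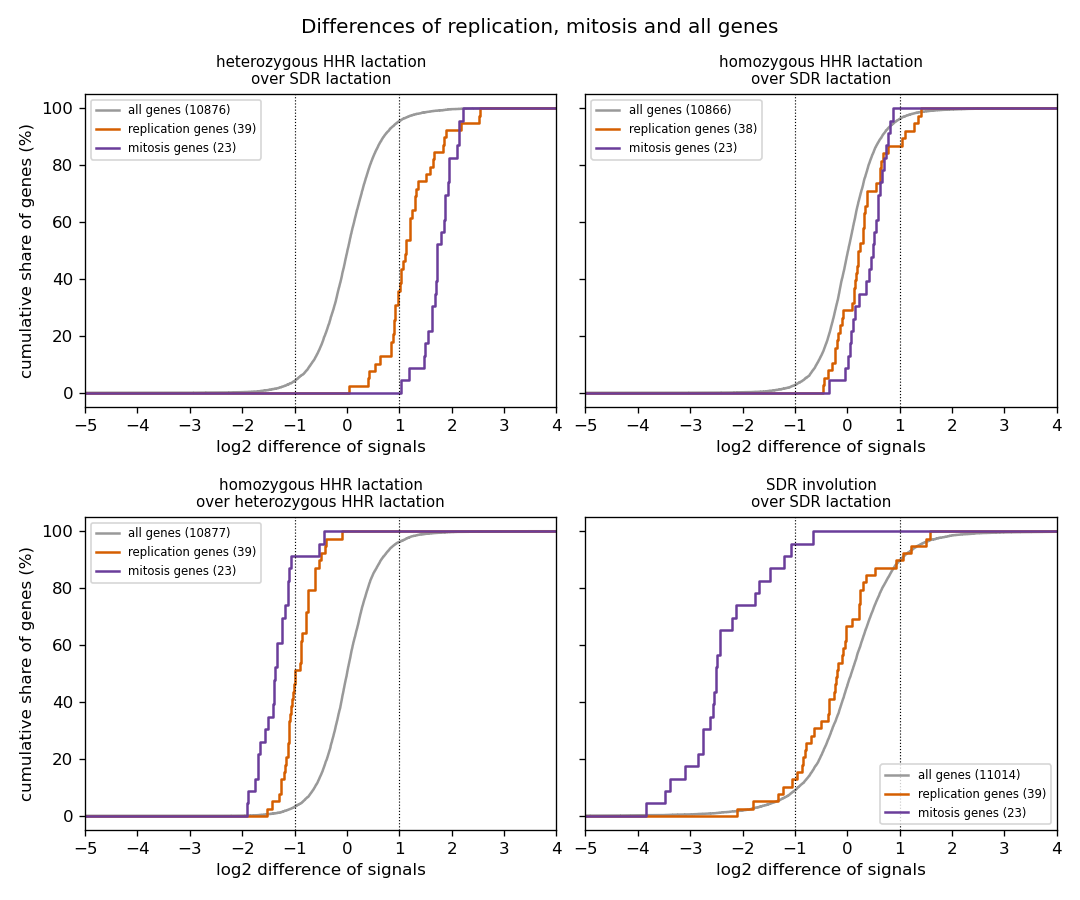
Cumulative share of genes (y axis, %) by log2 difference (x axis) in 4 comparisons, for all measured genes, the replication genes and the mitosis genes, with dotted lines at 2-fold. The replication curve lies right of all genes for heterozygous HHR over SDR lactation. In involution its median is -0.20, against 0.08 for all genes and -2.51 for the mitosis genes.

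Against SDR involution, heterozygous HHR were at least 2-fold higher for 28 of 40 genes and lower for 0, where 9.57% of 11041 genes were higher and 11.0% lower (median 1.28). Homozygous HHR were at least 2-fold higher for 11 of 39 and lower for 2, where 7.67% of 10998 genes were higher and 7.76% lower (median 0.43). The 2 lower genes were Rfc2 and Prim2. Strain and stage differ together in these pairs and cannot be told apart. With arrays scaled to the spiked-in controls the 28 and 11 genes became 18 and 6.

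Across all 4 arrays, the order of signals within each gene was then counted for the 34 genes above the floor throughout. Heterozygous HHR was highest in 31 of 34 (91.2%), against 23.7% of 9437 genes with all signals above the floor. SDR lactation and homozygous HHR were highest in 0. Involution was lowest in 19 genes (55.9%, against 30.7%), SDR lactation in 11 (32.4%, against 25.9%) and homozygous HHR in 4 (11.8%, against 18.6%). The 4 genes lowest in homozygous HHR were Mcm2, Prim2, Fen1 and Rpa2.

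Further probe sets of the same gene mostly followed the one that stands for it. Between heterozygous HHR and SDR lactation 9 of 10 further measured probe sets had the same sign, between involution and SDR lactation 8 of 8 did, and for the smaller differences between homozygous HHR and SDR lactation 6 of 9 did, the 3 others being 2 of Tk1 and the dimmest of Rfc1. The exception in heterozygous HHR was Rfc1, for which the dimmest of 3 probe sets read 234, 139.9, 141.5 and 316, against 351, 488, 465 and 731 for the middle one. All 3 Rfc1 probe sets had their highest signal in involution. Its direction between heterozygous HHR and SDR lactation is therefore not settled. The 3 measured probe sets of Cdc45 gave 2.59-fold to 3.03-fold for heterozygous HHR over SDR lactation, and the remaining probe set was below the floor throughout. Counted by probe set, 32 of 49 were at least 2-fold higher in heterozygous HHR than in SDR lactation and 0 lower. The same share over all probe sets was not computed.

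**Figure D5:**
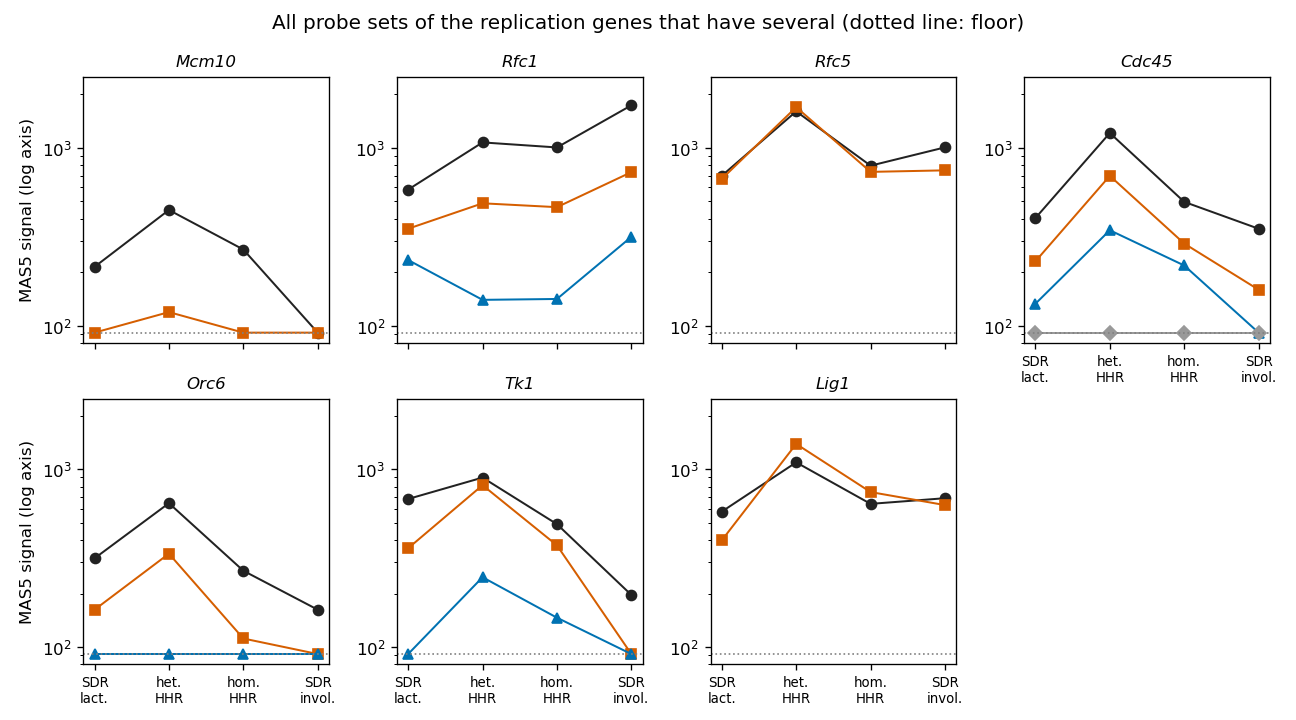
Signals (y axis, log scale) in the 4 arrays (x axis) for every probe set of the 7 genes that have several, 1 line per probe set, with signals below the floor drawn on it. For Cdc45, Orc6, Tk1, Rfc5, Lig1 and Mcm10 every probe set above the floor is highest in heterozygous HHR, whereas the Rfc1 probe sets are highest in involution and its dimmest one is lower in heterozygous HHR (139.9) than in SDR lactation (234) while the other 2 are higher.

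Other genes of replication, nucleotide metabolism and their control were taken from a list of 69, of which 58 were on the array and 57 were measured in this pair of lactation arrays. In heterozygous HHR 19 were at least 2-fold above SDR and 1 at least 2-fold below it, and the median was 0.64 on the log2 scale. Chaf1a, a histone chaperone of replicating chromatin, had signals of 176, 847, 427 and 168 and the largest difference, 4.82-fold. Clspn, an adaptor of Chek1 activation, was 3.90-fold higher, E2f2 3.68-fold, the clamp loader partner Dscc1 3.56-fold, and Fancd2, of interstrand crosslink repair, 3.05-fold. Dut, which removes dUTP and feeds thymidylate synthesis, had 1700, 5855, 2260 and 586, a 3.44-fold difference. The lower gene was Mcmbp, an MCM-binding protein, at 2.30-fold, named after its value was seen.

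In involution 8 of 54 measured genes of that list were at least 2-fold lower (14.8%) and 4 higher (7.41%), with a median of -0.05, against 8.94% and 10.3% of all measured genes. The higher share is thus no larger than the background, and the 4 genes are given as values only: E2f2 at 2.56-fold, Orc5 at 2.28-fold, Rb1 at 2.21-fold and Atrip at 2.20-fold, the latter 3 named after their values were seen. E2f2, like E2f1 an activator of the E2F family, had 385 in involution against 150.3 in SDR lactation.

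Markers of other cell types were read in the same arrays, since bulk tissue cannot tell fewer cells of a type from less RNA per cell. Between heterozygous HHR and SDR lactation the median log2 difference was -0.77 for 8 fibroblast markers, -0.71 for 7 endothelial, -0.44 for 7 T cell, -0.29 for 8 macrophage and neutrophil, -0.89 for 3 red cell and -0.26 for 10 luminal epithelial markers. It was 0.69 for 9 myoepithelial markers, 0.26 for 6 adipocyte markers and 0.37 for 2 B and plasma cell markers. For adipocyte markers the summed signal went the other way from the median, at 31928 in SDR lactation and 19650.5 in heterozygous HHR, with Lep below the floor in all arrays. Over the 4 arrays in the order above, the summed fibroblast signal was 70239, 44722, 68923.5 and 53749 and the summed endothelial signal 9014, 5486, 6073 and 5712. The summed signal of T cell markers was 2698.5 in SDR lactation and 1557 in heterozygous HHR, with Cd8a below the floor in all arrays, and that of myoepithelial markers 28476 and 47769. In involution the luminal markers had a median difference of 1.29 from SDR lactation, with summed signals of 125089 against 62391. None of the 10 luminal markers was below the floor in all 4 arrays. Adipocyte markers were lower in involution for 6 of 6 measured genes (median -0.96), T cell markers for 7 of 7 (-0.78), and fibroblast markers for 6 of 8 (-0.31). The part of cell composition in the replication gene differences was not tested.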

How the data were processed

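RNA of 4 mammary gland samples was measured as biotinylated cRNA on 1 oligonucleotide array each. The deposited values are intensities per probe set on a linear scale, made with MAS5 per the submitters' processing notes (version not given in the sources used here). Scaling was read from the values. Of 31099 probe sets 57 were controls, 20826 had 1 gene symbol in the platform annotation, 436 several and 9780 none. Member symbols needed 0 updates against RefSeq. Signals below 91.5, the pooled 40th percentile of non-control probe sets, were set to that value before log2. Where a gene had several probe sets, the brightest by mean log2 signal stands for it. A gene counts as measured in a pair when either array exceeds the floor, and differences of at least 2-fold were counted. No test was possible with 1 array per group. The members, roles and lists were chosen with earlier results of these data known. The rule for named genes allowed every member, with all signals for those at least 2-fold different from SDR lactation in heterozygous HHR or involution. Of the other lists it took the 6 largest differences in heterozygous HHR with both signals above the floor, Mki67 and Top2a. Further genes of the other replication list were named after their values were seen. Promoters of the 8 largest differences with an E2F word are printed. The counting of 2-fold differences was tested on simulated data, with differences well past 2-fold planted in genes far above the floor. That test does not cover dim genes or differences near 2-fold. Alternatives changed scaling, floor, probe set choice and threshold, and 3 were added after seeing the data. Python 3.11.15, numpy 2.4.6, pandas 2.3.3 and matplotlib 3.10.9 were used.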

Additional observations from a re-analysis of the deposited data

How the results depend on the processing

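Counts and medians of the replication genes were recomputed under 12 alternatives, 9 planned and 3 chosen after seeing the data, and 165 of 204 values stayed within 1.5 times of the count or 0.1 of the median, 38 moved further and 1 turned sign. The 165 include counts of 0 that stayed at 0, and at 3-fold a count of 0 could not change. The total is therefore no measure of stability by itself. At 3-fold, heterozygous HHR over SDR lactation had 9 genes higher, homozygous HHR over SDR 0, homozygous over heterozygous HHR 0 lower, involution over SDR lactation 0 higher and 2 lower, heterozygous HHR over involution 18 higher, and homozygous HHR over involution 3 higher and 0 lower. At 1.5-fold, homozygous HHR had 10 genes higher than SDR and 34 lower than heterozygous HHR, involution had 12 lower than SDR lactation, and heterozygous HHR 1 lower than involution. With a pseudocount in place of the floor the median of heterozygous HHR over SDR lactation was 0.96, homozygous HHR had 2 genes higher than SDR and 9 lower than heterozygous HHR (median -0.84), heterozygous HHR over involution had a median of 1.10, and homozygous HHR over involution had 6 higher, 1 lower and a median of 0.31. The pseudocount also took the genes higher in heterozygous HHR from 25 to 17 against SDR lactation. Against involution they went from 28 to 22. Both drops are within the 1.5 times taken as unchanged. With the floor at the 55th percentile the median of homozygous over heterozygous HHR was -0.88 and of heterozygous HHR over involution 1.16, involution had 3 genes lower than SDR lactation, and homozygous HHR 1 lower than involution. Quantile normalization gave a median of 0.55 for homozygous HHR over involution. Among genes above the floor in all 4 arrays, 3 were higher in homozygous HHR than in SDR and 3 lower in involution than in SDR lactation, and homozygous HHR over involution had a median of 0.32. Counting every probe set, 1 was lower in heterozygous HHR than in involution. Scaling to the spiked-in controls turned the median of involution over SDR lactation to 0.30, with 2 genes lower, and gave 0.42 for homozygous HHR over SDR, -0.82 and 7 genes lower for homozygous over heterozygous HHR, 0.80 with 18 higher and 1 lower for heterozygous HHR over involution, and 0.12 with 6 higher for homozygous HHR over involution. Shares over all genes were computed only as first reported above, so counts under the alternatives have no background beside them. The cause of these shifts was not tested beyond the construction of each setting. Dim signals leave only bounds for Orc1 and Brca1, and for Mcm10, Tyms, E2f8 and Uhrf1 in involution. No paired analysis was possible because each group has 1 array.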
